A study of Homo sapiens with 6 samples.

Results

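The genes described here are the TGF-beta ligands TGFB1, TGFB2 and TGFB3, the ligand-storing protein gene LTBP1, the receptor genes TGFBR1, TGFBR2 and TGFBR3, and the signal transducers SMAD2, SMAD3 and SMAD4. These 10 genes, of 60499 gene IDs in the count table, were matched from symbol to Ensembl gene ID, and the set was chosen on values that included their difference between the coatings. That difference is therefore given for each of the 10 as a description, without a p-value. All 10 passed the filter on low counts. The cells were H1, an established human embryonic stem cell line, cultured in NutriStem medium for 4 days. One group of 3 wells was coated with recombinant laminin-521 alone (LN-521), and the other group of 3 wells was coated with laminin-521 together with laminin-221 (LN-521+LN-221). Both groups thus shared the cell line, the medium and laminin-521. The wells are replicates of culture from 1 line, so the spread between them says nothing about other lines.

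TGF-beta ligands are made as dimers that stay bound to their own propeptide in a latent complex, which LTBP1 anchors in the extracellular matrix. Freed ligand binds the type II receptor TGFBR2, which then phosphorylates the type I receptor TGFBR1, and TGFBR3 (betaglycan) presents the ligand, TGFB2 in particular, to this pair. TGFBR1 phosphorylates SMAD2 and SMAD3, which join SMAD4 and enter the nucleus. In human embryonic stem cells SMAD2 and SMAD3 are best known for carrying Activin and Nodal signals, which act through other receptors and support the pluripotent state.

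The libraries held 20606450 to 26836686 estimated counts, and 27024 to 27889 genes had a count in each. Levels are given as CPM (counts relative to a library size scaled by edgeR's TMM method) when wells are compared, and as TPM (the deposited transcript abundances, corrected for transcript length) when genes are compared. The summed CPM of 8 markers of undifferentiated stem cells was 9434 to 9672 on LN-521, against 9475 to 9733 on LN-521+LN-221. Within that list POU5F1, NANOG and TDGF1 were lower on LN-521+LN-221 and LIN28A was higher. The summed CPM of 5 markers each of trophoblast, endoderm, mesoderm and neural cells was at most 1.23, 1.39, 5.19 and 5.47 in any well. The library of LN-521 well 1 had the strongest influence on gene counts: 446 genes had an adjusted p under 0.05 with all wells, and 1179 without it.

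TGFB2 was the member with the largest difference between the coatings, and TGFB1 and TGFB3 did not share it. For that reason the 250 bases upstream of the RefSeq start of each ligand gene (build GRCh38.p14) are shown, 5′ to 3′ on the gene's own strand. Capitals mark 4 motifs searched on both strands: the E-box CACGTG, the half-site of the cAMP response element TGACG or CGTCA, the TATA box TATAAA or TTTATA, and the SMAD box CAGAC or GTCTG. The TGFB2 window lies at chr1:218345086-218345335 on the plus strand, the TGFB1 window at chr19:41353923-41354172 on the minus strand, and the TGFB3 window at chr14:75981996-75982245 on the minus strand. RefSeq gives TGFB3 another start, whose window is not printed.
TGFB2: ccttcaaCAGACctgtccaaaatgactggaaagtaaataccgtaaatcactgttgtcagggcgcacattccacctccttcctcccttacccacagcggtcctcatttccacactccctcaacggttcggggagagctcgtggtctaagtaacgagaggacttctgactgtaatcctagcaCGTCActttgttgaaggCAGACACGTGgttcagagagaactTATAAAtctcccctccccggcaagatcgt
TGFB1: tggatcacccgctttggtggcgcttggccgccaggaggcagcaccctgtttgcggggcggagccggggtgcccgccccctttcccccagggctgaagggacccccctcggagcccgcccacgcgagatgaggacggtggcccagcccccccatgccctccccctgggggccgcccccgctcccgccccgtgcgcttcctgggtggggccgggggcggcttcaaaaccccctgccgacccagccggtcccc
TGFB3: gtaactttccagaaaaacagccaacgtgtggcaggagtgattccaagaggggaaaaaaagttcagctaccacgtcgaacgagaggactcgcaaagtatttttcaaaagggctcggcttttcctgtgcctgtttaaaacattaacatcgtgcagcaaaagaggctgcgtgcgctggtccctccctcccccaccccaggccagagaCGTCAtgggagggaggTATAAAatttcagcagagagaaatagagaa

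The 3 windows differ in composition and motifs. The TGFB2 window was 50.4% G and C and held all 4 motifs: the TATA box 29 to 24 bases before the start, the E-box 49 to 44, the response element half-site 70 to 66, and SMAD boxes at 53 to 49 and 243 to 239. The nearer SMAD box shares 1 base with the E-box. The TGFB1 window was 76.8% G and C and held none of the motifs. The TGFB3 window shown was 49.2% G and C, with a half-site 46 to 42 and a TATA box 30 to 25 bases before the start. The window of the other TGFB3 start held an E-box 20 to 15 bases before it and SMAD boxes at 133 to 129 and 245 to 241, so over both its windows TGFB3 had all 4 motifs too. These short motifs are common: of 35116 such windows, 6.35% held the E-box, 21.2% the half-site, 10.7% the TATA box and 38.0% the SMAD box. Of the 26 windows of the 10 genes, several of which share a gene, 3 held the E-box, 7 the half-site, 2 the TATA box and 11 the SMAD box. A match describes the letters only; no binding was measured.

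TGFB2 (ENSG00000092969, chr1:218346235-218444619 in GENCODE 29) encodes the ligand with the greatest need for betaglycan at the receptor. Its CPM was 6.40, 5.56 and 4.58 in the 3 LN-521 wells and 15.1, 13.95 and 18.6 in the 3 LN-521+LN-221 wells. Every LN-521+LN-221 well lay above every LN-521 well. The mean was 5.51 ± 0.915 CPM (SD, n = 3) on LN-521, against 15.9 ± 2.43 (SD, n = 3) on LN-521+LN-221. The log2 fold change of LN-521+LN-221 over LN-521 was 1.53 ± 0.14 (SE), a fold of 2.89. It stayed between 1.40 and 1.65 when any 1 library was left out. In TPM it was 1.01 on log2(TPM + 1) and 1.39 on log2(TPM + 0.1). These are bulk wells, in which more RNA per cell and more cells that express a gene cannot be told apart.

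A short transcript on the same strand, TGFB2-OT1, overlaps the 3′ end of TGFB2, and estimated counts can divide reads between them. It was listed at 0 counts in the 3 LN-521 wells and at 36.69, 16.81 and 0 in the LN-521+LN-221 wells, against 314.3, 311.2 and 441 for TGFB2 there. Adding its counts to those of TGFB2 gave a log2 fold change of 1.61. Of the markers of other cell types, the summed CPM of 6 mesenchymal genes was 24.0 to 25.4 on LN-521, against 20.9 to 21.8 on LN-521+LN-221, with LUM at 0 in all wells. The summed CPM of 5 endothelial genes was 22.2 to 26.9 and 23.3 to 28.1. Most of that sum was TEK, at 20.03 to 24.79 CPM on LN-521, against 20.51 to 24.03 on LN-521+LN-221. Of the 5, VWF was higher on LN-521+LN-221 (1.39 to 1.65 against 2.17 to 3.72 CPM). PECAM1 and CDH5 were lower in every LN-521+LN-221 well, but reached only 0.338 and 0.392 CPM in any well and were not tested. ESAM overlapped between the coatings and was not tested either. The part of these cell types in the TGFB2 level was not tested.

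TGFB1 (ENSG00000105329, chr19:41301587-41353911) encodes the most widely expressed ligand of the family. It had 5.97, 5.19 and 5.94 CPM on LN-521, against 4.72, 4.57 and 4.77 CPM on LN-521+LN-221. The LN-521+LN-221 wells all lay below the LN-521 wells, opposite to TGFB2. The gap between the closest wells was small, and the log2 fold change was -0.28 ± 0.13 (SE). In TPM it was larger, at -0.48 on log2(TPM + 1) and -0.67 on log2(TPM + 0.1). TGFB1 exons overlap those of HNRNPUL1 on the other strand, and the sources used here do not say if reads were assigned by strand. HNRNPUL1 had 225 to 233 CPM on LN-521, against 207 to 215 on LN-521+LN-221.

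TGFB3 (ENSG00000119699, chr14:75958099-75982991), the third ligand, was near the limit of the depth, with 13 to 35 counts per library. Its CPM was 1.53, 0.865 and 0.642 on LN-521, against 0.915, 0.762 and 0.549 on LN-521+LN-221. The groups overlapped. Its log2 fold change of -0.44 ± 0.36 (SE) became -0.03 without LN-521 well 1, so no direction can be read from it at this depth.

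**Figure D1:**
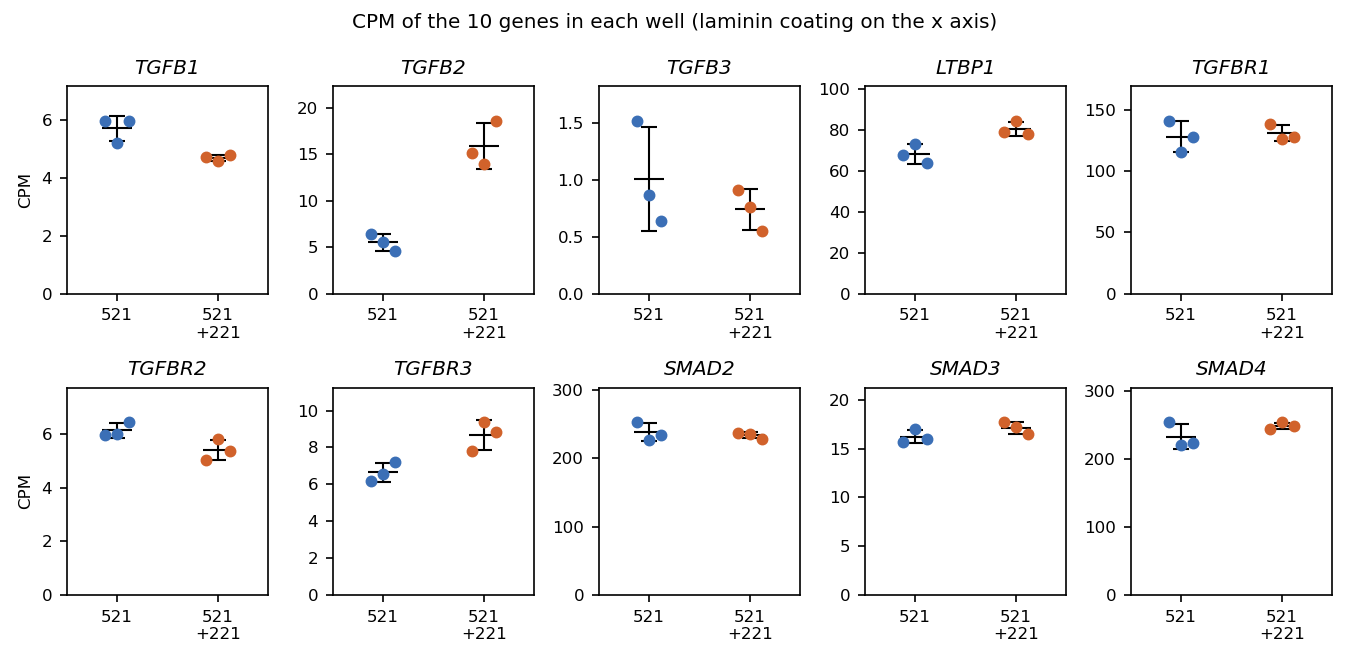
CPM of the 10 genes (y axis, from 0, one scale per panel) in each of the 6 wells, by coating (x axis). Points are wells, and bars are the mean ± SD of 3 wells. TGFB2 shows the widest gap, 4.58 to 6.40 CPM against 13.95 to 18.6 CPM, while the panels of TGFBR1, SMAD2, SMAD3, SMAD4 and TGFB3 show overlapping wells.

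The make-up of the ligand transcripts differed accordingly. TGFB2 made up 27.4%, 32.0% and 33.7% of the summed TPM of the 3 ligand genes in the LN-521 wells, and 65.6%, 60.0% and 66.7% in the LN-521+LN-221 wells. By TPM, TGFB1 was the major ligand transcript in each LN-521 well, at 55.9% ± 1.27 (SD, n = 3), and made up 26.3% ± 3.84 (SD, n = 3) on LN-521+LN-221. That order on LN-521 depends on the length correction. In CPM, TGFB2 was above TGFB1 in LN-521 wells 1 and 2 (6.40 against 5.97 and 5.56 against 5.19) and below it in well 3 (4.58 against 5.94). The share of TGFB3 overlapped between the coatings, at 11.2% to 16.1% and 7.17% to 11.3%. The summed TPM of the 3 ligands was 6.94, 3.84 and 3.71 on LN-521, against 6.28, 5.58 and 6.48 TPM on LN-521+LN-221. LN-521 well 1 had the highest sum of all 6, so the sums overlapped. That well also had the lowest count per TPM of TGFB1, at 0.581 of the median gene's, against 0.769 to 1.15 in the others. In CPM, which does not correct for length, the sums did not overlap, at 13.9, 11.6 and 11.2 on LN-521, against 20.75, 19.3 and 23.95 CPM on LN-521+LN-221.

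**Figure D2:**
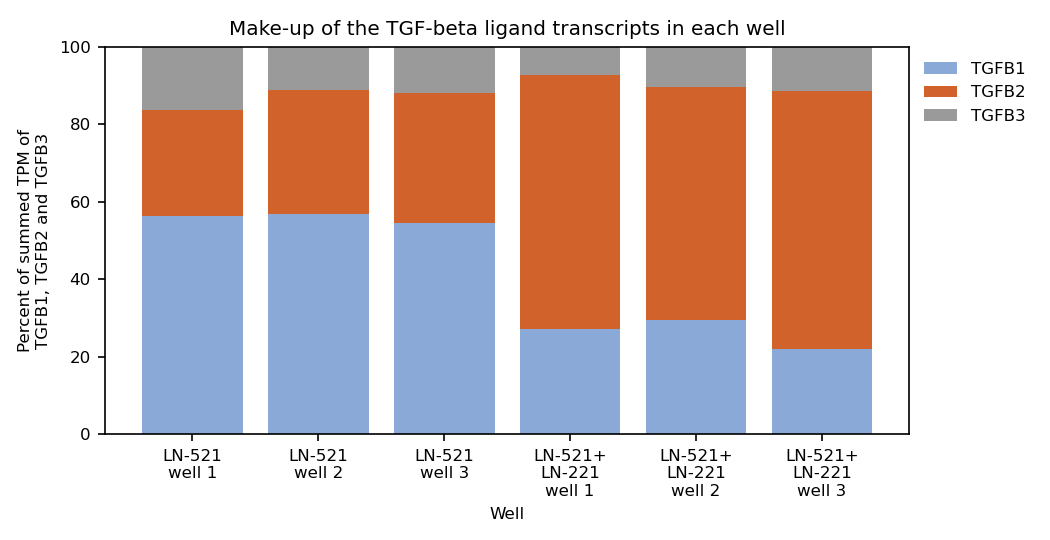
Percent of the summed TPM of TGFB1, TGFB2 and TGFB3 (y axis) that each gene made up in each of the 6 wells (x axis). TGFB1 is the largest segment in the 3 LN-521 wells and TGFB2 in the 3 LN-521+LN-221 wells, where it holds 60.0% to 66.7%.

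LTBP1 (ENSG00000049323, chr2:32946972-33399509) encodes the protein that tethers latent ligand to the matrix. It had 67.6, 73.2 and 63.7 CPM on LN-521, against 79.1, 84.6 and 78.1 CPM on LN-521+LN-221. All LN-521+LN-221 wells were above all LN-521 wells, by a small margin. The log2 fold change was 0.24 ± 0.07 (SE). It lay between 0.19 and 0.30 when any 1 library was left out. LTBP1 transcripts outnumbered those of the 3 ligands in every well, with a TPM ratio of 1.72 to 3.02 that overlapped between the coatings.

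The signalling receptors showed little difference. TGFBR1 (ENSG00000106799, chr9:99104038-99154192), the type I receptor kinase, had 141.1, 115.5 and 127.6 CPM on LN-521, against 138.4, 126.4 and 127.7 CPM on LN-521+LN-221. The wells overlapped almost fully, and the log2 fold change was 0.03 ± 0.07 (SE). TGFBR2 (ENSG00000163513, chr3:30606502-30694142), the ligand-binding type II receptor, had 5.97, 6.02 and 6.46 CPM on LN-521, against 5.06, 5.83 and 5.36 CPM on LN-521+LN-221. The closest wells differed by little, the log2 fold change was -0.18 ± 0.13 (SE), and in TPM the groups overlapped. TGFBR1 exceeded TGFBR2 by 22.5 to 30.1 times in TPM, so the type II receptor was the scarcer transcript of the pair in all 6 wells.

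TGFBR3 (ENSG00000069702, chr1:91680343-91906335), the betaglycan co-receptor, had 6.19, 6.58 and 7.18 CPM on LN-521. On LN-521+LN-221 it had 7.80, 9.37 and 8.83 CPM. The LN-521+LN-221 wells were all higher, as for TGFB2, but the log2 fold change was smaller, at 0.38 ± 0.12 (SE). It lay between 0.32 and 0.45 when any 1 library was left out. In TPM it was 0.51 on log2(TPM + 1) and 0.81 on log2(TPM + 0.1).

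The SMAD genes were nearly level. SMAD2 (ENSG00000175387, chr18:47808957-47931146) had 227 to 252.6 CPM on LN-521, against 228.2 to 237 CPM on LN-521+LN-221, with a log2 fold change of -0.03 ± 0.05 (SE). SMAD3 (ENSG00000166949, chr15:67063763-67195195) had 15.7 to 17.0 and 16.5 to 17.7 CPM, with a log2 fold change of 0.07 ± 0.09 (SE). SMAD4 (ENSG00000141646, chr18:51028394-51085045), the shared partner that BMP-responsive SMADs also use, had 220.9 to 253.8 and 243.5 to 253.2 CPM, with a log2 fold change of 0.09 ± 0.06 (SE). The wells of the coatings overlapped for all 3 genes. SMAD2 and SMAD3 were far apart in level, with 11.5 to 25.0 times more TPM of SMAD2.

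Ordered by length-corrected level over the 6 wells, SMAD4 came first at 95.1 ± 8.72 TPM (SD, n = 6), followed by SMAD2 at 70.5 ± 3.27, TGFBR1 at 26.76 ± 2.59 and LTBP1 at 12.8 ± 1.85. The ranges of these neighbours did not overlap, and LTBP1 was also above SMAD3 in every well. SMAD3 followed at 4.72 ± 1.22 TPM, TGFB2 at 2.70 ± 1.41, TGFB1 at 2.15 ± 0.907, TGFBR3 at 1.55 ± 0.574, TGFBR2 at 1.04 ± 0.091 and TGFB3 at 0.625 ± 0.269. From SMAD3 down, the ranges of neighbours overlapped. SMAD4, SMAD2, TGFBR1 and LTBP1 were thus the abundant transcripts, and SMAD3 was closer to the ligands, with 2.99 TPM in LN-521 well 1, where TGFB1 had 3.92. TGFB2 was 7th of 10 on LN-521, against 6th on LN-521+LN-221, while TGFB1 went from 6th to 8th. RNAs of the 7SL family took 30.1% to 37.3% of the TPM, so absolute TPM values are lower than in a library without them.

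**Figure D3:**
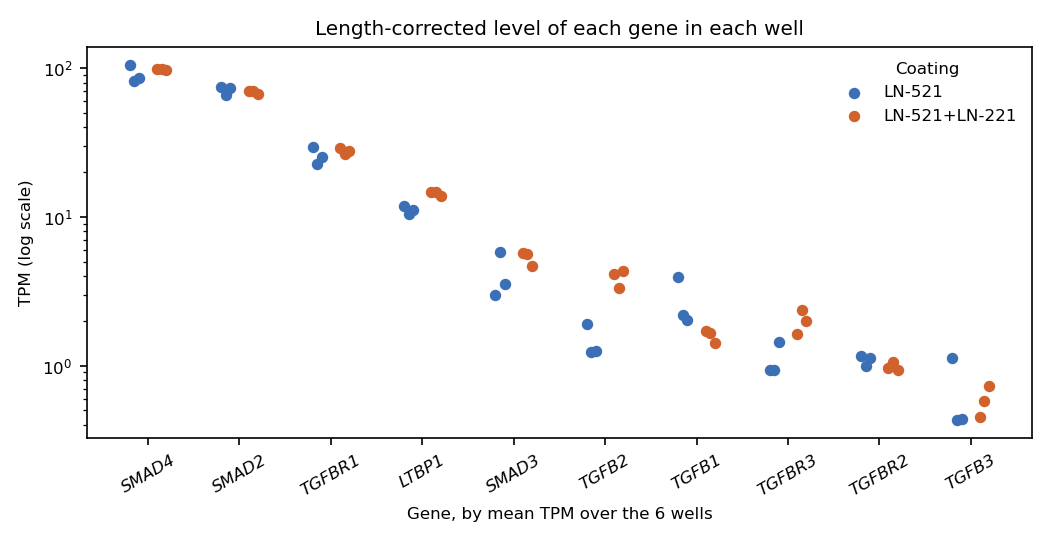
TPM (y axis, log scale) of each gene in each well, with genes ordered along the x axis by their mean over 6 wells. Points are wells, coloured by coating. SMAD4 and SMAD2 lie at 66.4 TPM or above in every well, and the 3 ligand genes lie at 4.32 TPM or below.

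The TPM of some members varied more between wells than their counts did. A gene's count divided by its TPM follows the transcript length used by the estimate, which depends on the isoforms assigned. Over the 6 wells the highest value of this ratio, relative to that of the median gene in each library, was 2.91 times the lowest for TGFB3, 2.10 times for SMAD3, 1.99 times for TGFB1 and 1.79 times for TGFBR3. It was 1.02 times for TGFBR2, between 1.06 and 1.19 times for SMAD4, TGFBR1, LTBP1, SMAD2 and TGFB2, and 1.11 times for the median gene with over 200 counts. The length behind the TPM values thus varied most for TGFB3, SMAD3, TGFB1 and TGFBR3. For SMAD3 the log2 fold change was 0.07 in CPM but 0.35 on log2(TPM + 1) and 0.43 on log2(TPM + 0.1).

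Across the whole table, 2.53% of the 17608 genes tested had an adjusted p under 0.05: 1.40% were higher on LN-521+LN-221 and 1.14% lower. Of the 10 members 1, TGFB2, was past that threshold, and since the members were chosen with this contrast known nothing is read from that count. The CPM of the coatings' wells did not overlap for 5 members (TGFB1, TGFB2, LTBP1, TGFBR2 and TGFBR3), against 19.9% of all genes tested, and nothing is read from that either. The median log2 fold change of the members was 0.05, with 6 of 10 above 0, and that of all genes was 0.00. In size, 48 genes, TGFB2 included, had a log2 fold change at least as far from 0 as that of TGFB2. The same count was 1486 for TGFB3, 1898 for TGFBR3, 3130 for TGFB1, 3757 for LTBP1, 5323 for TGFBR2 and higher for TGFBR1 and the 3 SMAD genes.

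**Figure D4:**
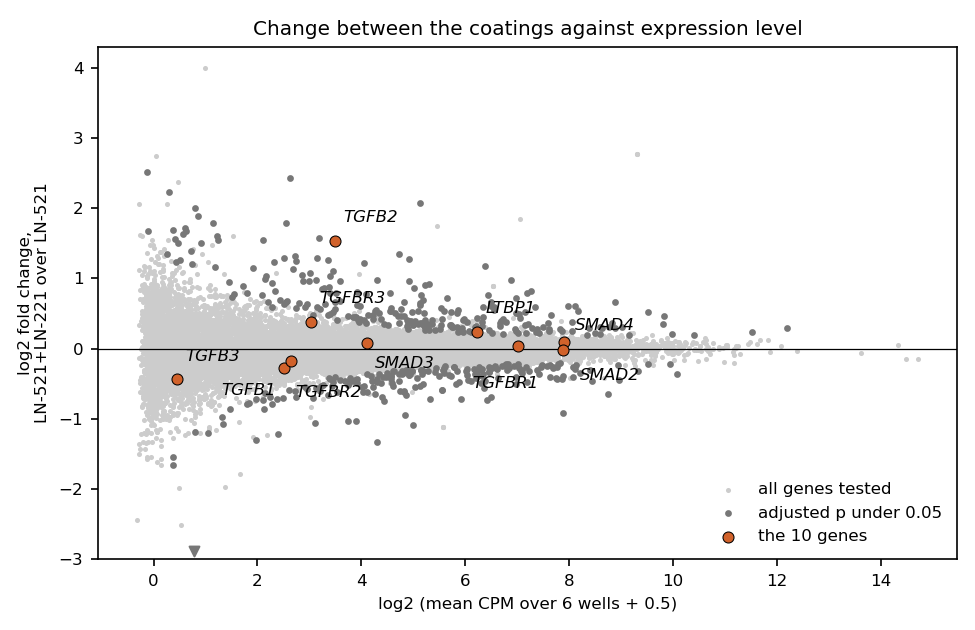
Log2 fold change of LN-521+LN-221 over LN-521 (y axis) against log2 of the mean CPM over 6 wells plus 0.5 (x axis) for the 17608 genes tested. Orange points are the 10 genes, dark grey points had an adjusted p under 0.05, and the triangle is a gene below the axis range. TGFB2 stands above the cloud at 1.53, and the other 9 lie between -0.44 and 0.38.

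The genes whose pattern over the 6 libraries was most like that of TGFB2, by Pearson correlation of log2(CPM + 0.5), were ZNF813 (r = 0.998), UBXN10 (r = 0.996) and FGFR1OP2 (r = 0.996). UBXN10 had 1.61 to 1.92 CPM on LN-521, against 2.75 to 3.17 CPM on LN-521+LN-221. ZNF813 and FGFR1OP2 differed far less in size, with log2 fold changes of 0.14 ± 0.06 and 0.12 ± 0.07 (SE). Of 16246 genes compared, 211 had r above 0.95. Among the members, r with TGFB2 was 0.85 for LTBP1, 0.81 for TGFBR3, 0.66 for SMAD4, 0.54 for SMAD3, 0.23 for TGFBR1, -0.18 for SMAD2, -0.32 for TGFB3, -0.86 for TGFB1 and -0.86 for TGFBR2, all from the same 6 libraries. Over 3 wells on each coating, these values mostly restate the gap of TGFB2 between the coatings.

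Of 87 other genes of the pathway in 5 lists, 83 were tested, 3 rose and 4 fell, against 2.53% of all genes tested in either direction. The median log2 fold change was -0.03, against 0.00 for all genes. The genes past the threshold were ITGB8, TPM1 and RHOB, which were higher on LN-521+LN-221, and SKIL, CCN2, FN1 and NANOG, which were lower. The count of 7 went from 4 without LN-521 well 3 to 14 without LN-521 well 1, and to 0 with limma on either log2(TPM) scale.

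**Figure D5:**
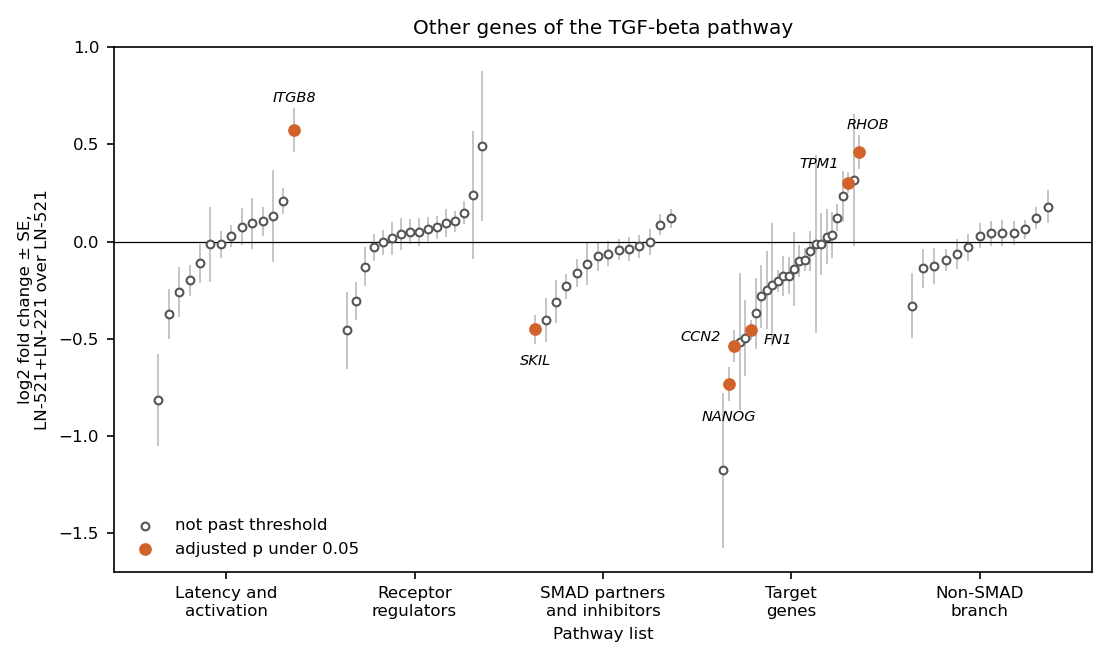
Log2 fold change ± SE of LN-521+LN-221 over LN-521 (y axis) for the 83 pathway genes tested, by list (x axis) and ordered by value within a list. Filled points had an adjusted p under 0.05 in the edgeR fit. The 7 filled points are ITGB8, SKIL, NANOG, CCN2, FN1, TPM1 and RHOB, and 5 of them are target genes.

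Among genes of ligand latency and activation, 14 of 15 were tested, 1 rose and none fell. ITGB8 encodes the beta chain of an integrin that frees TGF-beta from its latent complex. It had 22.9, 17.6 and 15.6 CPM on LN-521, against 26.7, 27.1 and 29.6 CPM on LN-521+LN-221. The wells did not overlap, and the log2 fold change was 0.58 ± 0.11 (SE), with an adjusted p of 0.00939. That call was lost without LN-521 well 2, LN-521 well 3 or LN-521+LN-221 well 3. An antisense gene over ITGB8, AC004130.1, had 19 to 37 counts on LN-521, against 10 to 14 on LN-521+LN-221, against 389 to 701 for ITGB8. ITGAV, the alpha chain that pairs with ITGB8, had 117 ± 5.02 CPM on LN-521, against 119 ± 1.58 on LN-521+LN-221 (SD, n = 3), with a log2 fold change of 0.03 ± 0.06 (SE, adjusted p = 0.864). For FURIN, the protease that cuts the ligand precursor, the log2 fold change was -0.20 ± 0.08 (SE, adjusted p = 0.239). For LTBP3, a relative of LTBP1, it was 0.10 ± 0.13 (SE, adjusted p = 0.803).

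None of the 16 co-receptors and receptor regulators, all tested, passed the threshold, and their median log2 fold change was 0.05. ENG (endoglin), a co-receptor, had 2.33 ± 0.070 CPM on LN-521, against 1.69 ± 0.068 on LN-521+LN-221 (SD, n = 3). Its log2 fold change was -0.46 ± 0.20 (SE, adjusted p = 0.292), with 36 to 60 counts per library, and an antisense gene over it had 26 to 56. The 13 genes of the branch that does not use SMADs gave no call either, with a median of 0.03. MAP3K7, which encodes the kinase TAK1, had a log2 fold change of 0.12 ± 0.06 (SE, adjusted p = 0.343).

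Among SMAD partners and inhibitors, 14 of 15 were tested, 1 fell and none rose, with a median log2 fold change of -0.07. SKIL encodes SnoN, a corepressor that holds back SMAD complexes and is itself induced by the pathway. It had 598.9, 498.4 and 627.3 CPM on LN-521, against 447.4, 420.2 and 394.2 CPM on LN-521+LN-221. Every LN-521+LN-221 well was lower, with a log2 fold change of -0.45 ± 0.08 (SE) and an adjusted p of 0.00400. The call was lost without LN-521 well 1 (adjusted p = 0.118). SMAD7, the inhibitory SMAD induced by TGF-beta, had 9.03 ± 0.362 and 6.83 ± 0.461 CPM (SD, n = 3), a log2 fold change of -0.40 ± 0.11 (SE) and an adjusted p of 0.0772. Without LN-521 well 1 it passed the threshold, with a log2 fold change of -0.43 (adjusted p = 0.0436). PMEPA1, another feedback inhibitor, had 9.70 ± 0.450 and 7.83 ± 0.557 CPM (SD, n = 3), a log2 fold change of -0.31 ± 0.11 (SE) and an adjusted p of 0.181.

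Of 28 target genes known to respond to TGF-beta, 26 were tested, 2 rose and 3 fell, against 2.53% of all genes tested in either direction. Their median log2 fold change was -0.16. The list was written with earlier results of these data known, so nothing is read from that count. FN1, which encodes the matrix protein fibronectin, had 387.2, 394.8 and 421.9 CPM on LN-521, against 292.8, 295.9 and 289.7 CPM on LN-521+LN-221. Its wells were far apart for their spread, with a log2 fold change of -0.45 ± 0.05 (SE) and an adjusted p of 5.08e-05. CCN2, the connective tissue growth factor gene, which YAP also controls, had 36.2, 42.1 and 44.7 CPM on LN-521, against 29.5, 28.8 and 26.7 CPM on LN-521+LN-221. Its log2 fold change was -0.54 ± 0.08 (SE, adjusted p = 0.00117). NANOG, a pluripotency factor gene bound by SMAD2 and SMAD3 in these cells, had 107 ± 10.3 and 64.5 ± 7.93 CPM (SD, n = 3). Its log2 fold change was -0.73 ± 0.09 (SE, adjusted p = 1.65e-04), and with GC correction and the replicate block together it was -0.74 with an adjusted p of 0.0653. NANOG has near-identical pseudogenes, and its counts were fractional in all 6 libraries. FN1, CCN2 and NANOG stayed past the threshold whichever library was left out.

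TPM1 and RHOB went the other way. TPM1, an actin-binding tropomyosin gene, had 347 ± 18.8 CPM on LN-521, against 429 ± 11.5 on LN-521+LN-221 (SD, n = 3), a log2 fold change of 0.30 ± 0.05 (SE, adjusted p = 0.00364). RHOB, a small GTPase gene, had 21.5 ± 0.700 and 29.5 ± 3.26 CPM (SD, n = 3), a log2 fold change of 0.46 ± 0.09 (SE, adjusted p = 0.00584). Both calls were lost without LN-521 well 3, and that of RHOB also without LN-521+LN-221 well 3. TGFBI had 9.61 ± 1.42 and 9.87 ± 0.628 CPM (SD, n = 3), with a log2 fold change of 0.04 ± 0.12 (SE, adjusted p = 0.931). Leaving out NANOG, LEFTY1, LEFTY2 and NODAL, which Nodal and Activin also control, left 22 tested targets, of which 2 rose and 2 fell.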

How the data were processed

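Total RNA of 6 wells was sequenced with a stranded kit in pairs of 150 bp, per the labels' protocols. The submitters' processing notes name cutadapt, STAR 2.5.2b, RSEM 1.2.31 and build hg38; the gene annotation and the use of strand are not given in the sources used here. The authors deposited estimated counts, of which 6.08% to 6.67% per library were not whole, and TPM. Counts were rounded, filtered with filterByExpr (minimum count 10), scaled by TMM and tested with edgeR 4.0.16 (R 4.3.3, quasi-likelihood, robust, all 6 libraries, no replicate block), with Benjamini-Hochberg adjustment over 17608 genes and a threshold of 0.05. The SE is the absolute log2 fold change divided by the square root of F. P-values set the difference between the coatings against the spread between wells of 1 line. No 2 libraries agreed within sampling noise (chi-square per degree of freedom at least 2.85). This value was 2.85 to 5.94 between LN-521+LN-221 wells, 7.21 to 15.6 between LN-521 wells and 7.75 to 16.9 between wells of different coatings. DESeq2 1.42.0 and limma 3.58.1 were alternatives. Scripts were tested on simulated data. There edgeR called 86.3% of genes changed by a log2 of 1 and 63.3% of those changed by 0.5. Of its calls there, 8.28% were false at the threshold of 0.05. Symbols came from a gene ID table, and positions, strands and overlaps from GENCODE 29 (GRCh38), which held 93.8% of the IDs; promoter windows came from RefSeq. All 10 members had a window.

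The members and lists were chosen with earlier results of these data known. The text names all members, list genes past the threshold, a fixed set of genes (SMAD7, SKIL, PMEPA1, TGFBI, LTBP3, FURIN, ITGAV, ENG and MAP3K7, with another not reported here) and the 3 genes most like TGFB2.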

Additional observations from a re-analysis of the deposited data

Results flagged for a closer look

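TGFB2-OT1, a transcript on the strand of TGFB2 that overlaps its 3′ end and is outside the comparison of the 10 genes, was listed at 0 counts in every LN-521 well but reached 36.69 counts in LN-521+LN-221 well 1. It drew attention as a signal in data not otherwise compared, above the level in the LN-521 wells. LN-521+LN-221 well 3 was at 0 as well, although TGFB2 was highest there. These 2 nonzero values are estimates that share reads with TGFB2, and they gave no test.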

How the results depend on the processing

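The count of members past the threshold (1, TGFB2), which is a description since they were chosen on this contrast, was 2 (TGFB2 and LTBP1) without a filter, with DESeq2, with the replicate block, with GC correction, with GC correction and the block, and at a threshold of 0.1; it was 0 on log2(TPM + 0.1) and 1 to 3 with 1 library left out, the 3 being TGFB2, LTBP1 and SMAD4 without LN-521 well 1. The count of pathway genes (7) was 11 without a filter, 11 with GC correction and the block, 11 at a threshold of 0.1, 0 on log2(TPM + 1), 0 on log2(TPM + 0.1), and 4 to 14 with 1 library left out.

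The count of all genes (446) was 718 without a filter, 938 with GC correction, 1095 with that and the replicate block, 33 on log2(TPM + 1), 16 on log2(TPM + 0.1), 221 and 725 at thresholds of 0.01 and 0.1, and 194 to 1179 with 1 library left out. The replicate block alone gave 646 genes, 2 members and 10 pathway genes. Same-numbered wells did not deviate together (correlations of 0.07, -0.03 and -0.02). With 3 wells per coating, this cannot settle whether the numbers pair the wells. The log2 fold change of ITGAV was -0.0194 with GC correction and -0.0193 with that and the block, and that of TGFBI was -0.0769 to 0.12 with 1 library left out (below 0 without LN-521 well 1, and -0.0187 without LN-521+LN-221 well 3), neither past the threshold. With 1 library left out, that of TGFBR1 was -0.0364 to 0.106 and that of SMAD2 -0.0552 to 0.0199; TGFBR1 was at -0.00065 with GC correction. The causes were not tested. Low counts limit TGFB3 and ENG.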
